A study of Mus musculus with 4 samples.

Results

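The STAT transcription factors and the JAK kinases that activate them were compared between mammary tissue of mice with and without miR-21. The genes were chosen by name, as 6 STAT genes (*Stat2*, *Stat3*, *Stat4*, *Stat5a*, *Stat5b* and *Stat6*) and 3 JAK genes (*Jak1*, *Jak2* and *Jak3*). All 9 were found among the 22483 named loci of a table of 30506 loci, each on a single row. *Jak3* shares its row with *Insl3*, which encodes an insulin-like peptide, and the other 8 genes have a row of their own. Poly(A) RNA came from whole mammary gland of 4 virgin mice of a mixed strain (129SV::FVB/N::C57BL/6) at 2 months of age. The 2 control mice were miR-21+/+ and the 2 others were miR-21-/-, and the labels give no further allele or treatment for either group. The labels do not say whether the lymph node of the gland was removed, and whole tissue mixes epithelium, fat, vessels and immune cells. Expression is given in FPKM, fragments scaled to exon length and to the number of mapped fragments. The authors combined the 2 mice of a genotype in a single FPKM value, so the spread between mice is not visible and the differences stand without a replicate check or a test. How deeply each library was sequenced is unknown from such values.

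JAK kinases sit on the inner side of cytokine receptors. When a cytokine such as prolactin binds, they phosphorylate the receptor and a STAT protein, which pairs up, enters the nucleus and binds DNA at GAS motifs. In the mammary gland, prolactin signals through JAK2 and STAT5A and STAT5B to form and maintain the milk-secreting alveoli, STAT6 acts in luminal cell commitment, and STAT3 drives the removal of alveoli after weaning. STAT2 serves type I interferon signals, STAT4 the interleukin-12 response of T and NK cells, and JAK3 the receptors of lymphocytes that carry the common gamma chain. The study compared the genotypes to look for genes that miR-21 targets in the gland.

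In miR-21+/+ glands *Jak1* was the most abundant of the 9 genes at 47.5 FPKM, followed by *Stat3* at 36.6, *Stat6* at 27.2 and *Stat5a* at 22.8 FPKM. Behind them came *Stat5b* at 20.5, *Stat2* at 18.4, the joint locus of *Jak3* and *Insl3* at 15.6 and *Jak2* at 13.8 FPKM. *Stat4* stood apart at 1.42 FPKM. In miR-21-/- glands *Stat3* led at 57.3 FPKM, ahead of *Jak1* at 46.5, *Stat5a* at 39.0, *Stat6* at 31.3 and *Stat5b* at 26.0 FPKM. The order closed with *Jak2* at 17.0, *Stat2* at 14.9, the *Jak3* locus at 13.7 and *Stat4* at 0.510 FPKM. *Stat3* thus passed *Jak1* and *Stat5a* passed *Stat6*, and *Jak2* moved ahead of *Stat2* and *Jak3*. Without a spread between mice it cannot be said which neighbours in either order differ.

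**Figure D1:**
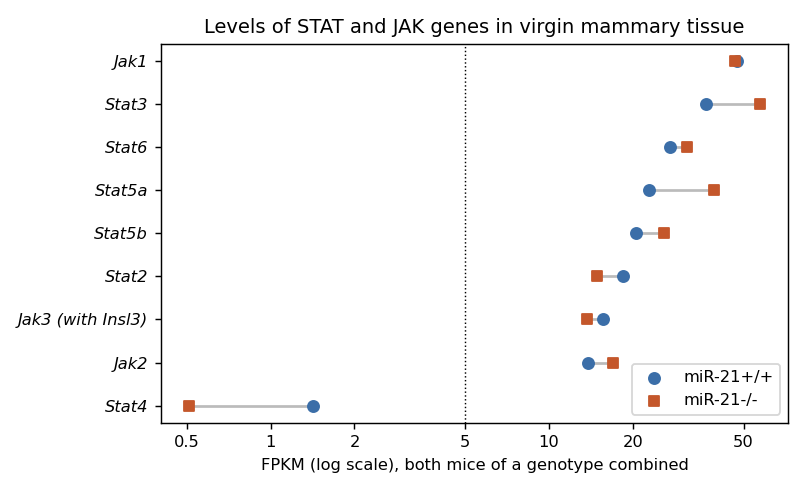
FPKM of the 9 genes on a log scale, with a circle for miR-21+/+ and a square for miR-21-/- glands, each the authors' value for 2 mice, and a dotted line at 5 FPKM. The circle and square of *Jak1* nearly coincide, those of *Stat3* (36.6 and 57.3) and *Stat5a* (22.8 and 39.0) lie apart, and *Stat4* is left of the line in both genotypes.

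Of the 9 genes, 8 were above the minimum of 5 FPKM in one genotype or both, and 0 of these 8 differed by 2-fold or more, against 2.73% of the 9714 named loci above this minimum. At a limit of 1.5-fold, 2 of the 8, *Stat5a* and *Stat3*, were higher in miR-21-/- glands, where 3.85% of the named loci were that much higher. None was that much lower, where 4.33% of the named loci were. The log2 ratio of the FPKM values, miR-21-/- over miR-21+/+, was above 0 for 5 of the 8 genes and below 0 for 3, with a median of 0.25 beside −0.03 over the 9714 loci. These counts depend on the scaling. The FPKM values of all loci sum to 759295 in controls and 1175603 without miR-21, and scaling both to equal sums shifts every log2 ratio by −0.63. The difference lies in loci without a gene name, which sum to 378728 and 820218 FPKM, whereas named loci sum to 380567 and 355385 FPKM, and equal sums over these shift the ratios by 0.099. With equal sums over all loci, 0 of the 8 genes were 1.5-fold higher and 3 were 1.5-fold lower, *Stat2* at −0.94, *Jak3* at −0.82 and *Jak1* at −0.66. At least 49.6% of the 9714 named loci, those with a ratio below that of *Jak1*, are then 1.5-fold lower too. *Stat5b*, *Stat6* and *Jak2* then change direction and *Stat3* and *Stat5a* come to 0.01 and 0.14, while the place of each gene among the other loci stays as it is. The values below are as deposited. The table's status word says whether the authors' program completed its test, which it did for 8 of the 9 genes. It is FAIL for *Stat5a*, as for 1011 (10.4%) of the 9714 loci.

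**Figure D2:**
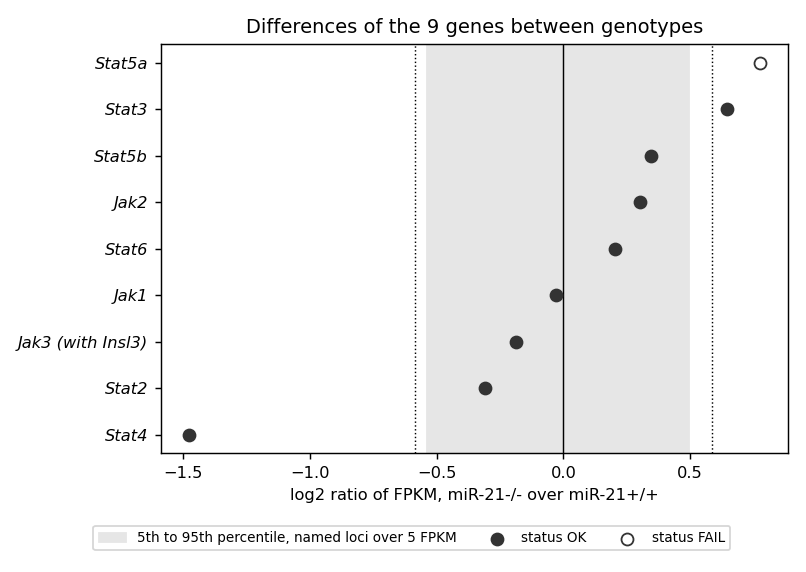
Log2 ratio of FPKM, miR-21-/- over miR-21+/+ as deposited, for the 9 genes, with a grey band from the 5th to the 95th percentile of named loci over 5 FPKM (−0.54 to 0.50) and dotted lines at 1.5-fold. *Stat5a* (open circle, status FAIL) and *Stat3* lie to the right of the band and *Stat4*, which is under 5 FPKM, to its left, and equal sums over all loci would move every point by −0.63.

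*Stat5a*, *Stat3* and *Stat5b* were the 3 STAT genes with the highest ratios. *Stat5a*, the main prolactin-activated STAT of mammary epithelium, was at 22.8 FPKM in miR-21+/+ and 39.0 FPKM in miR-21-/- glands, 1.71-fold higher, a log2 ratio of 0.78. Of the 9714 named loci, 217 (2.23%) had a higher ratio. *Stat3*, which transmits signals of the interleukin-6 and LIF family, was at 36.6 and 57.3 FPKM, 1.56-fold higher, a log2 ratio of 0.64 that 317 loci (3.26%) exceeded. *Stat5b*, which also serves growth hormone signals, was at 20.5 and 26.0 FPKM, 1.27-fold higher, a log2 ratio of 0.34. With 7.89% of the named loci above it, *Stat5b* lay between the 5th and the 95th percentile of these loci. Together the *Stat5a* and *Stat5b* values came to 43.3 FPKM in controls and 65.0 FPKM without miR-21. *Stat5a* exceeded *Stat5b* by a factor of 1.11 in controls and of 1.501 without miR-21. Summed over the 6 STAT genes, the level was 127 and 169 FPKM, and *Stat3* made up 28.8% and 33.9% of it.

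These 3 genes are neighbours. In mm9 the table places *Stat5b* at chr11:100642044-100711899 (minus strand), *Stat5a* at chr11:100720665-100746543 (plus strand) and *Stat3* at chr11:100748124-100800825 (minus strand), a span of 159 kb. The other 13 named loci above 5 FPKM within 200 kb on either side had log2 ratios from −0.34 to 0.12. None reached 1.5-fold in either direction, where 3.85% of the 9714 named loci were that much higher and 4.33% that much lower. With such shares a count of 0 among 13 loci says little. The nearest of them, *Ghdc* before *Stat5b* and *Ptrf* after *Stat3*, were at 0.07 and −0.05. This window was chosen after the values had been seen. Loci without a gene name and those under the minimum are not part of these counts, and 3 unnamed ones between *Stat5b* and *Stat5a* had higher values in miR-21-/- glands, the highest of 3.42 FPKM. The *Mir21* hairpin lies on the same chromosome, 14.2 Mb from *Stat5b*. *Stat2*, *Stat4*, *Stat6*, *Jak1* and *Jak2* lie on other chromosomes and had 13, 3, 5, 2 and 2 other named loci above 5 FPKM within 200 kb. Of these loci 0 reached 1.5-fold either, and their numbers are small beside the same shares. Around *Jak3* 3 of 10 did, the lowest being *Slc27a1*, a fatty acid transporter of fat tissue, at −1.45.

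**Figure D3:**
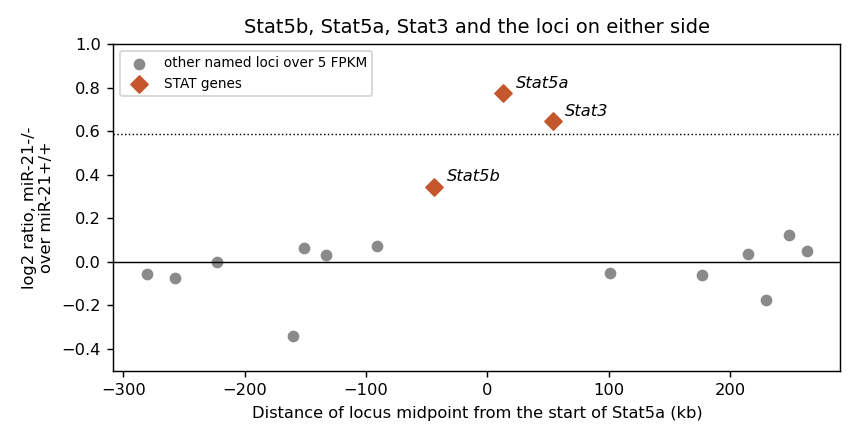
Log2 ratio of FPKM, miR-21-/- over miR-21+/+ as deposited, for the named loci over 5 FPKM around the STAT genes of chromosome 11, against the distance of each locus midpoint from the start of *Stat5a* in kb. The diamonds of *Stat5b* (0.34), *Stat5a* (0.78) and *Stat3* (0.64) stand above the 13 grey points of the other loci, which lie between −0.34 and 0.12, and the dotted line marks 1.5-fold.

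In the longest annotated 3′ UTRs of the 9 genes, *Stat3* alone holds matches to the whole seed of miR-21, which were the matches planned for the search. *Stat5a* and *Stat5b* hold a weaker, partial match, counted in addition. MicroRNAs pair through their seed, bases 2 to 8, mostly with sites in the 3′ UTR of a messenger RNA. Other forms of pairing and other parts of the transcripts were not searched. The mature miR-21 (RefSeq, GRCm38.p6, chr11:86584120-86584141, minus strand) is shown with its seed in capitals. The sites in mm9 follow with the matching bases in capitals, since they are the matches that this search found.
miR-21: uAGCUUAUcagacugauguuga
*Stat3*, first site: ttagttatacaATAAGCTgaacttataaa
*Stat3*, second site: tctggagtcagATAAGCTccctaatggag
*Stat5a* site: agttttactccTAAGCTAgaagcttcgcc
*Stat5b* site: cacatagttttTAAGCTAccctggattta

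The sites of *Stat3* pair with the whole seed (ATAAGCT, the 7mer-m8 type) and lie in its longest annotated 3′ UTR of 3701 nt, at chr11:100748515-100748543 and chr11:100747817-100747845. The first is present in 2 and the second in 1 of the 4 annotated 3′ UTRs of the gene, and the second lies outside the *Stat3* locus of the table, which ends at 100748124 on that side. *Stat5a* and *Stat5b* hold the weaker 7mer-A1 type (TAAGCTA, which pairs with bases 2 to 7 and has an A opposite base 1), at chr11:100745624-100745652 and chr11:100642446-100642474, in 3′ UTRs of 1173 and 2365 nt. Each of these was present in all annotated 3′ UTRs of its gene, 3 of 3 and 2 of 2. No site of either type and no 8mer (ATAAGCTA) was found in the longest 3′ UTRs of the other 6 genes, which run from 252 nt in *Stat4* to 1476 nt in *Stat2*. Sites are more frequent in long UTRs. Over the 9039 genes that passed the minimum and have a 3′ UTR in the annotation, the share with any site of these types was 11.3%. Among UTRs of 3000 nt or more, as in *Stat3*, 21.2% had an 8mer or 7mer-m8 site and 2.55% had 2 or more. A 7mer-A1 site was found in 4.70% of UTRs of the length class of *Stat5a* and in 7.34% of that of *Stat5b*. A match is a description of the sequence, and whether miR-21 acts through any of these sites was not tested.

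*Stat5a* and *Stat5b* are near copies, so reads may be hard to divide between them. Of the windows of 50 bases in the longest annotated *Stat5a* transcript (3888 nt), 15.8% occur letter for letter in that of *Stat5b* (5213 nt), and 11.8% of the *Stat5b* windows occur in *Stat5a*. The longest identical run covers 324 bases of coding sequence, from base 904 to 1227 of the *Stat5a* transcript and from base 1058 to 1381 of the *Stat5b* transcript. Its first 60 bases are shown, since a read from them fits either gene.
Shared by *Stat5a* and *Stat5b*: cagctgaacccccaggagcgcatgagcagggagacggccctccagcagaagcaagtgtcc

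No window of 36 bases or more of *Stat3* occurs in *Stat5a* or *Stat5b*, so its value is not touched by them in this way. The length of the reads and the treatment of reads with several placements are not given in the sources used here, and the separate values of *Stat5a* and *Stat5b* are uncertain to that extent. The annotated ends of *Stat5a* and *Stat3*, which run toward each other, also overlap by 72 bases, though their loci in the table are 1580 bases apart.

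*Stat6*, *Stat2* and *Stat4* showed no common direction. *Stat6* (chr10:127079046-127104168), the interleukin-4 and interleukin-13 responsive STAT, was at 27.2 FPKM in miR-21+/+ and 31.3 FPKM in miR-21-/- glands, a log2 ratio of 0.20, which 13.8% of the named loci exceeded. *Stat2* (chr10:127707632-127729912), the partner of IRF9 in interferon signalling, was at 18.4 and 14.9 FPKM, a log2 ratio of −0.31, with 11.9% of the named loci below it. *Stat4* (chr1:52065088-52164028) was at 1.42 and 0.510 FPKM, 2.78-fold lower in miR-21-/- glands, a log2 ratio of −1.48. It did not pass the minimum of 5 FPKM, and with a pseudocount of 1 its log2 ratio was −0.68. Among the 13565 named loci above 1 FPKM in at least one genotype, 2.56% were 2-fold or more lower.

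T cell markers were lower along with *Stat4*, which T and NK cells express. All 13 T cell markers were below 0, with a median log2 ratio of −2.22, a summed level of 63.2 FPKM in miR-21+/+ and 15.2 FPKM in miR-21-/- glands, and none at 0 in either. *Cd3e* and *Lck*, the T cell receptor subunit and its kinase, were at 7.26 and 8.41 FPKM in controls and at 1.22 and 2.13 FPKM without miR-21. All 8 B cell markers were lower too, summing to 37.0 and 5.62 FPKM. Of 8 NK cell markers 6 were lower and 2 higher, with sums of 7.88 and 5.73 FPKM. In tissue RNA, fewer cells of a type and less RNA per cell cannot be told apart, and the part of these cells in the *Stat4* value was not tested.

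Of the JAK genes none reached 1.5-fold as deposited. With equal sums over all loci *Jak1* and *Jak3* were that much lower, at −0.66 and −0.82, as were at least 49.6% of the named loci. *Jak1* (chr4:100741643-100937887), which serves receptors of most cytokine families, was at 47.5 FPKM in miR-21+/+ and 46.5 FPKM in miR-21-/- glands, a log2 ratio of −0.03 that equals the median of the named loci to 2 decimals. *Jak2* (chr19:29326318-29387570), the kinase of the prolactin, growth hormone and leptin receptors, was at 13.8 and 17.0 FPKM, a log2 ratio of 0.30, with 9.08% of the named loci above it. The level of *Jak1* was 3.44 times that of *Jak2* in controls and 2.73 times without miR-21. The locus of *Jak3* and *Insl3* (chr8:74199960-74225704) was at 15.6 and 13.7 FPKM, a log2 ratio of −0.19, with 21.1% of the named loci below it. The annotated *Insl3* gene of 1362 bases lies wholly inside *Jak3* on the same strand, so the value cannot be divided. The sum of the JAK values was 76.9 and 77.2 FPKM.

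The rest of the pathway was described from 12 lists of ligands, receptors, regulators and target genes. Of their 94 genes above 5 FPKM, 8 were at least 1.5-fold higher and 13 at least 1.5-fold lower in miR-21-/- glands, which is 8.51% and 13.8% beside 3.85% and 4.33% of the named loci. Their median log2 ratio was −0.06. The lists were written with earlier results of these data known, so the shares are not an independent comparison.

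**Figure D4:**
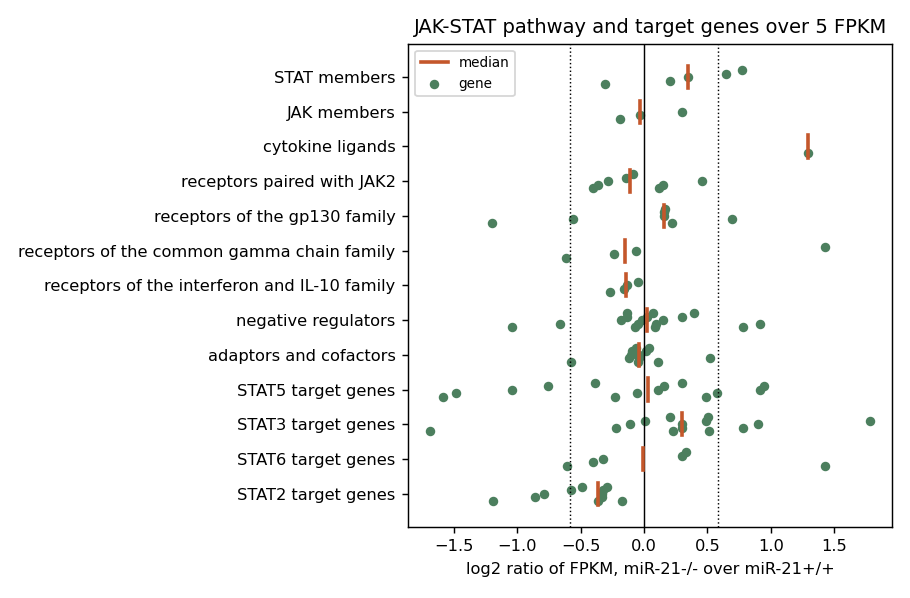
Log2 ratio of FPKM, miR-21-/- over miR-21+/+ as deposited, for the genes over 5 FPKM of each list, with a dot per gene, a bar at the median and dotted lines at 1.5-fold. The STAT genes and the STAT3 targets have medians of 0.34 and 0.30 and every STAT2 target lies left of 0, and equal sums over all loci would move every point by −0.63.

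Among the 29 ligands with a locus of their own, 1 exceeded 5 FPKM, *Lep*, the leptin of fat cells, at 27.7 and 67.9 FPKM. Of the chains of receptors that signal through JAK2, whether or not the chain itself binds the kinase, 0 of 8 reached 1.5-fold. *Prlr*, the prolactin receptor upstream of STAT5, was at 31.5 and 43.2 FPKM, a log2 ratio of 0.46, and *Ghr*, the growth hormone receptor, at 237 and 184 FPKM, a log2 ratio of −0.36. *Ifngr1* and *Il3ra*, chains of the receptors of interferon gamma and interleukin-3, were at −0.28 and −0.40. Of 7 receptors of the gp130 family, which signal to STAT3, *Osmr* for oncostatin M was higher at 0.70 and *Il27ra* lower at −1.20. Their shared subunit *Il6st* was at 0.16, with 54.7 FPKM in controls and 61.2 FPKM without miR-21, and the interleukin-11 receptor *Il11ra1* at 0.22. In the common gamma chain family, *Il4ra*, the interleukin-4 receptor upstream of STAT6, was at 10.4 and 28.2 FPKM, a log2 ratio of 1.43, and *Il15ra* at 33.0 and 21.6 FPKM, a log2 ratio of −0.61. The list of this family also holds *Il13ra1* and *Crlf2*, related receptors that do not use the gamma chain. At any level, 8 of the 9 genes of the list with a locus of their own were below 0 and 1 above. The median was −0.70, beside −0.15 for the 4 above the minimum, which include *Il13ra1* and *Crlf2*. *Il2rg*, the gamma chain that binds JAK3, shares its locus with *Gm614* and was left out of the counts. That locus was at 19.2 and 10.01 FPKM, a gene named after its value had been seen. All 4 interferon and interleukin-10 receptors above the minimum were below 0, from *Ifnar2* at −0.27 and *Il10ra* at −0.16 to *Il10rb* at −0.04, and none reached 1.5-fold.

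Of 17 negative regulators, 2 were at least 1.5-fold higher and 2 at least 1.5-fold lower, with a median of 0.02. The higher ones were feedback inhibitors that STAT proteins induce, *Cish* at 3.31 and 6.23 FPKM and *Socs3* at 4.94 and 8.49 FPKM. The lower ones were phosphatases of blood cells, *Ptprc* at 21.6 and 10.5 FPKM and *Ptpn6* at 15.99 and 10.1 FPKM. *Socs3* and *Ptpn6* were named after their values had been seen. The phosphatases of wider expression, *Ptpn11* and *Ptpn1*, were at 0.07 and 0.15. Of 12 adaptors and cofactors none reached 1.5-fold, and they ran from −0.57 for *Sh2b2*, an adaptor of JAK2, to 0.52 for *Gab1*, a docking protein. The most abundant, *Nr3c1* and *Grb2*, were at −0.04 and −0.10, and the status of *Nr3c1* is FAIL.

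The target genes of the single STAT factors follow, from lists that share a few genes with each other and with the regulators and receptors. Of 14 STAT3 targets, 11 were above 0 and 3 below, with a median of 0.30 beside −0.03 over the 9714 named loci. *Lrg1*, a secreted glycoprotein of the acute phase, was at 64.2 and 222 FPKM, a log2 ratio of 1.79, and *Socs3* and *Fos* were at 0.78 and 0.90. *Timp1*, an inhibitor of matrix proteases, was at 24.4 and 7.59 FPKM, a log2 ratio of −1.69. *Hp* and *Ctsb*, the most abundant of the list, were at 0.30 and −0.22.

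Of 14 STAT5 targets, 7 were above and 7 below 0, with a median of 0.03. *Cish* and *Elf5*, a luminal transcription factor, were at 0.91 and 0.95. The milk protein genes *Csn1s2a*, *Wap* and *Csn2* were lower, at −1.59, −1.48 and −1.04, as was the kinase gene *Pim1* at −0.75. *Csn3*, the most abundant milk protein gene of the list, was at 73.2 and 79.0 FPKM, a log2 ratio of 0.11, and *Akt1* at −0.05. *Csn1s1*, the other milk protein gene above the minimum, was at 8.33 and 11.7 FPKM, a log2 ratio of 0.49. Of the 5 milk protein genes 3 were thus below and 2 above 0. *Csn1s1*, *Csn2*, *Pim1* and *Fos* were named after their values had been seen.

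All 11 STAT2 targets above the minimum were below 0, between −1.19 and −0.18, with a median of −0.37, and *Stat2* was at −0.31. The median of the 9714 named loci was −0.03, so more of these loci lay below 0 than above it too. *Irf7*, *Oas2* and *Bst2*, all induced by interferon, were at least 1.5-fold lower, at −1.19, −0.86 and −0.79, and the status of *Oas2* is FAIL. Of 6 STAT6 targets 3 were above and 3 below 0. *Il4ra* was at 1.43 and *Ccl11*, the eotaxin gene, at −0.61, with 69.7 FPKM in miR-21+/+ and 45.7 FPKM in miR-21-/- glands. The most abundant of the list, *Retnla* and *Pparg*, were at −0.32 and −0.40. None of the 7 STAT4 targets with a locus of their own exceeded 5 FPKM.

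Markers of other cells differed between the genotypes together with *Stat3*, *Stat5a* and *Stat5b*. Of 10 luminal epithelium markers 8 were above 0, with a median log2 ratio of 0.32 and summed levels of 703 and 923 FPKM. *Krt8* and *Krt18*, keratins of luminal cells, were at 0.72 and 0.55. *Foxa1* and *Esr1*, hormone receptor-positive luminal genes named after their values had been seen, were at −0.35 and −0.50, and the status of *Esr1* is FAIL. All 5 myoepithelium markers with a locus of their own were above 0, with a median of 0.62 and sums of 287 and 459 FPKM. All 7 skeletal muscle markers were above 0, with a median of 0.89 and sums of 1076 and 1790 FPKM. Of 6 adipocyte markers 5 were below 0 and *Lep* above, with a median of −0.33 and sums of 10643 and 7817 FPKM. Endothelium, macrophage and fibroblast markers had medians of 0.07, 0.04 and −0.15, with sums of 143 and 149, 551 and 496, and 2976 and 2751 FPKM. None of the markers of these lists was at 0 in either genotype, and the part of the cell mixture in the values of the STAT genes was not tested.

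**Figure D5:**
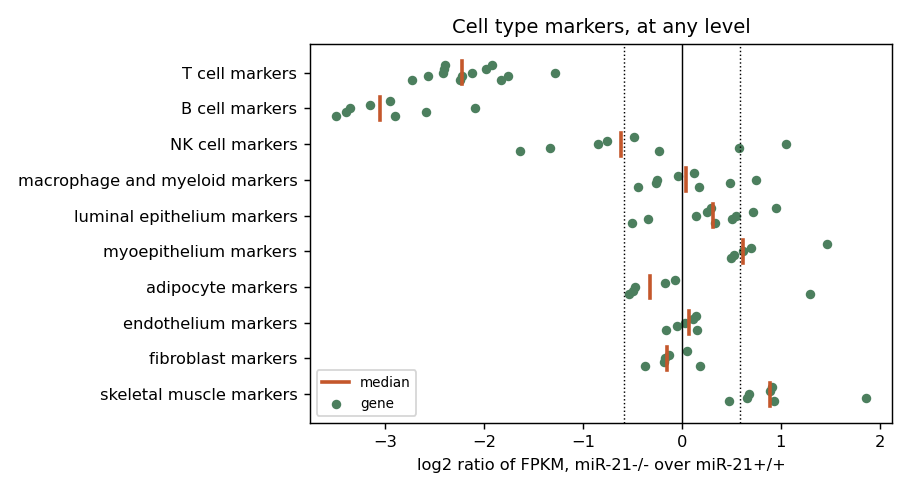
Log2 ratio of FPKM, miR-21-/- over miR-21+/+ as deposited, for cell type markers at any level, with a dot per gene, a bar at the median and dotted lines at 1.5-fold. T and B cell markers lie far to the left (medians −2.22 and −3.06), epithelial and muscle markers mostly to the right, and endothelium, macrophage and fibroblast markers around 0.

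The study names the GAS motif as the DNA site of STAT3 and STAT5. It was searched as TTCNNNGAA, which reads the same on either strand, in the RefSeq promoter windows (GRCm38.p6) that run from 250 bases before to 50 bases after each annotated gene start. Of the 12 windows of the 9 genes none held it, and of all 32851 windows 8.30% did. No match says only that these letters are not in these windows.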

How the data were processed

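Poly(A) RNA of mammary gland from 2 miR-21+/+ and 2 miR-21-/- mice was read from a single end. TopHat was used by the authors for alignment to mm9, and they estimated FPKM values with Cufflinks and deposited a single Cuffdiff table, in which the FPKM of a locus combines the 2 mice of a genotype. The submitters' processing notes name CASAVA and TopHat. Program versions, gene annotation, read length and normalization options are not given in the sources used here. The table's status word was used. Its columns of fold change, test statistic, p-value, q-value and call hold the authors' own comparison and were not used. FPKM values carry no read counts, so the depth is unknown and no interval was computed.

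The log2 ratio of the FPKM values was computed for each locus without a pseudocount. A locus counted if it carried a gene name and lay above 5 FPKM in one genotype or both, the minimum of the study's methods, and folds of 2 and 1.5 were used as limits. A name with several rows would take the row of highest mean FPKM. The 11 listed genes that share a locus with a gene outside their list were left out of the list counts. Genes named are the 9 members and, from each pathway and target list, the 2 most abundant and the 2 with the largest log2 ratio in size. Marker lists are given by their sums and medians with a few such genes. Other names were chosen after their values were seen. The members and lists were chosen with earlier results of these data known. No likeness of patterns between genes was computed, since a gene has a value per genotype only, and a model over single mice could not be fitted. Starts in the table count from 0, since 7412 names matched an annotated gene start after adding 1 and 432 as printed, and coordinates are given counting from 1. Transcripts and 3′ UTRs were taken from the GENCODE annotation of mm9, and each printed site was checked against that genome. Protein sequences were not used. The calculations, tested on simulated data, used Python 3.11.15 with numpy 2.4.6, pandas 2.3.3 and matplotlib 3.10.9.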

Additional observations from a re-analysis of the deposited data

Results flagged for a closer look

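A signal was present at loci without a gene name, which the counts of named loci above leave out. In the 8765 bases between *Stat5b* and *Stat5a* the table lists 3 such loci, and all had higher values in miR-21-/- than in control glands. The locus at chr11:100716787-100717277 was listed at 0 in miR-21+/+ and 0.759 FPKM in miR-21-/- glands. The locus at chr11:100717957-100718415 was at 0.0780 and 0.757 FPKM. The locus at chr11:100718694-100718980, the nearest to *Stat5a*, was listed at 0 and 3.42 FPKM. All 3 are at most 491 bases long and under 5 FPKM, at which single values are imprecise. Of the 7395 unnamed loci that did not pass 5 FPKM, 3301 (44.6%) had a higher value in miR-21-/- glands and 4094 a lower one. What these transcripts are and whether they belong to *Stat5a* was not tested.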

How the results depend on the processing

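No paired analysis was possible because each genotype has its FPKM combined over mice, which also kept fits without single mice or with a replicate block from being run. The 10 alternatives gave 89 values for single members, of which 78 moved by at most 0.1 on the log2 scale. That count is no measure of stability. Other minimums, sums over rows of a name and the limit to status OK cannot move the ratio of a member. Equal sums over named loci shift every ratio by 0.099, just under the 0.1. With equal sums over all loci the median of the members was −0.38, *Stat5b*, *Stat6* and *Jak2* were at −0.29, −0.43 and −0.33, and 61 list genes in place of 21 passed 1.5-fold. The 3 members then past 1.5-fold were lower (*Stat2*, *Jak1* and *Jak3*), in place of the 2 that were higher. At least 49.6% of the 9714 named loci were then 1.5-fold lower as well. The medians were then −0.47 for gp130 receptors, −0.63 for negative regulators, −0.68 for STAT5 targets and −0.33 for STAT3 targets. With equal sums over named loci *Jak1* was at 0.068, adaptors at 0.059 and STAT6 targets at 0.27, and with the median of named loci at 0 the STAT6 targets were at 0.018. A minimum of 1 FPKM or no minimum brought *Stat4* in, so that 1 member passed 2-fold. Without a minimum 44 list genes passed 1.5-fold and the STAT5 targets had a median of −0.051. At 1 FPKM the medians were −0.14 for the STAT5 targets, −0.30 for the ligands and −0.66 for the list of the common gamma chain family. With status OK only, *Stat5a* dropped out, 1 member passed 1.5-fold and the medians of STAT5 targets and negative regulators were −0.051 and −0.019. The latter was also −0.019 with over 5 FPKM in both genotypes. Windows of 36 and 100 bases gave 20.01% and 6.99% of *Stat5a* shared with *Stat5b*. A GAS motif with a spacer of 4 bases was found in 1 window, that of *Stat2*. Counting 8mer and 7mer-m8 sites alone, 1 member held a miR-21 site, and with 7mer-A1 sites 3 did. The unknown depth leaves the precision of low values such as those of *Stat4* uncertain.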

Other observations

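Other loci without a gene name lay within 10 kb of *Jak2*, *Jak3*, *Stat4* and *Stat6*. Before *Jak2*, 3 of them were at 0.547 to 0.592 FPKM in miR-21+/+ and 0.720 to 1.13 FPKM in miR-21-/- glands. After the *Jak3* locus, one of 259 bases was at 5.07 and 8.13 FPKM and one of 202 bases at 27.5 and 41.6 FPKM, both higher in miR-21-/- glands, while the *Jak3* locus was not. The locus after *Stat4*, of 5544 bases, was at 0.853 and 0.479 FPKM, lower in miR-21-/- glands like *Stat4* itself, and that after *Stat6* was at 1.42 and 1.57 FPKM. These values stand without a replicate check.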
